A study of Mus musculus with 6 samples.

Results

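The DNA damage checkpoint genes described here encode the kinases ATM, ATR, CHK1 (Chek1), CHK2 (Chek2) and WEE1 and the proteins ATRIP, TOPBP1, claspin (Clspn), MDC1 and RAD17 that recruit, activate or relay them. The 10 genes were taken by symbol from the 14546 genes of a PRO-seq table, and all 10 passed the filter on low values that left 12451 genes for the tests. PRO-seq maps transcribing RNA polymerases through the nascent RNA that they extend with biotin-labelled nucleotides in isolated nuclei. The libraries came from cultured, proliferating muscle stem cells (MuSCs, also called satellite cells) that had been purified on magnetic columns from tamoxifen-treated young adult mice. Ctrl MuSCs had the genotype Pax7CreERT/Suv4-20h1WT (3 libraries) and Kmt5bsKO MuSCs the genotype Pax7CreERT/Suv4-20h1KO (3 libraries), where Suv4-20h1 is the older name of Kmt5b, whose product adds a second methyl group to monomethylated lysine 20 of histone H4. Both groups thus carried the tamoxifen-inducible Cre driven by Pax7, and in the knockout Kmt5b was deleted only in cells that had expressed Pax7.

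The checkpoint works through 2 apical kinases. ATM is activated at DNA double-strand breaks and signals mainly to CHK2, with MDC1 as the adaptor that holds the response on phosphorylated histone H2AX. ATR, carried by ATRIP to single-stranded DNA at stalled replication forks, can be activated through the RAD17-loaded 9-1-1 clamp and TOPBP1. Claspin hands the ATR signal to CHK1. CHK1 and WEE1 both restrain the cyclin-dependent kinases and so hold cells out of mitosis while DNA is unrepaired. In proliferating muscle progenitors, as in other dividing cells, the fork branch is in use in every S phase.

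The signal was counted in the first 400 nt of each gene (TSS region), given as RPM, reads scaled to a common library total, and in the rest of the gene (gene body), given as TPM, which also corrects for length. Behind the values of the 10 genes lay 13 to 363 TSS reads and 109 to 1704 gene body reads per library. Over all listed genes, TSS reads per library ranged from 926904 to 3246025 and gene body reads from 7425419 to 16249221, and replicates differed by far more than sampling noise. Kmt5b itself did not fall in either region (log2 difference 0.27 in the TSS region, adjusted p = 0.72, and 0.14 in the gene body, adjusted p = 0.71). The deleted part of the gene was not examined separately, so these values do not check the deletion. The genotype of the libraries rests on their labels. Satellite cell genes were transcribed throughout (gene body Pax7 25.5 to 53.7 TPM, Myod1 855 to 1328 TPM), whereas Pecam1 of endothelium, Pdgfra of fibroblasts and Itgam of myeloid cells did not exceed 3.04, 1.06 and 0.65 TPM. Not all markers of other cell types were low, since the fibroblast marker Col3a1 had 36.3 to 54.9 TPM and the macrophage marker Cd68 had 214 to 402 TPM.

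Most of the checkpoint genes had lower values in Kmt5bsKO than in Ctrl MuSCs, and 4 of them passed the test in at least 1 region. Calls were made where the p that limma gave was under 0.1 after Benjamini-Hochberg adjustment. In the TSS region Clspn, Mdc1 and Wee1 fell (3 of 10, with 0.731% of all 12451 genes called lower), and none rose. In the gene body Topbp1, Mdc1 and Wee1 fell (3 of 10, background 1.38%), and again none rose. The difference was negative for 9 of the 10 genes in each region, with Atr the exception in the TSS region and Rad17 in the gene body, whereas 41.8% and 46.2% of all genes had negative differences. The median log2 difference of the 10 genes was -0.67 in the TSS region (0.081 over all genes) and -0.61 in the gene body (0.023 over all genes). All 3 Kmt5bsKO libraries lay below all 3 Ctrl libraries for 6 genes in TSS signal (background 5.33%) and for 7 in the gene body (background 9.34%). At an unadjusted p under 0.05, the numbers of genes lower were 6 (background 3.65%) and 7 (background 6.46%).

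**Figure D1:**
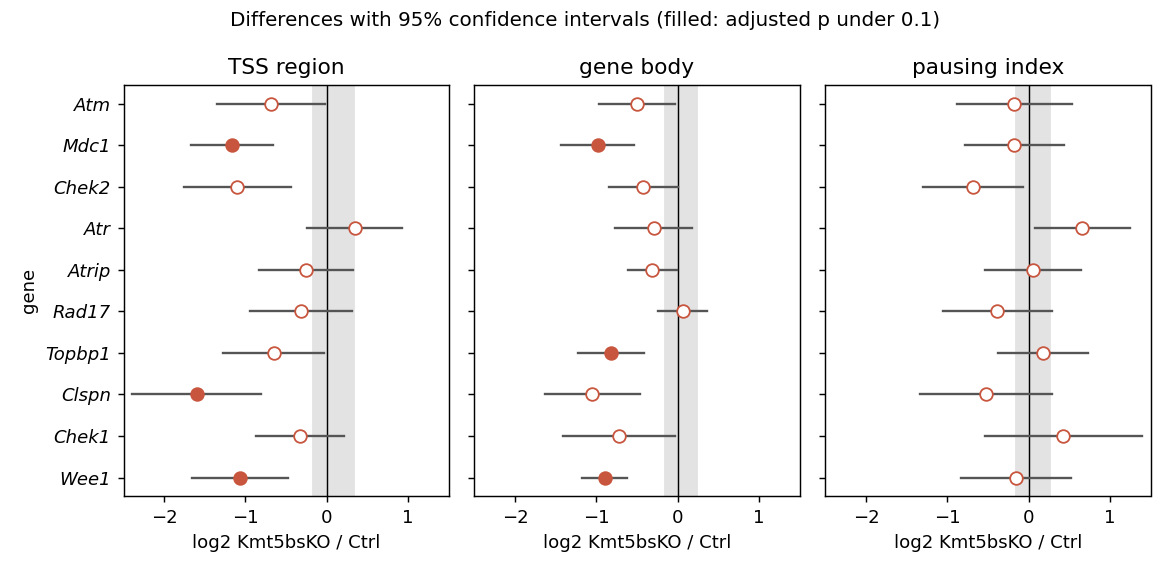
Log2 difference between Kmt5bsKO and Ctrl MuSCs (x axes) of the 10 checkpoint genes (y axis) in the TSS region, the gene body and the pausing index. Points are limma estimates with 95% confidence intervals, filled at an adjusted p under 0.1, and the grey band holds the middle 50% of all genes tested; Mdc1 and Wee1 are filled in both regions and no gene is filled for the pausing index.

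Leaving out single libraries removed calls. Without Ctrl replicate 1 or without Kmt5bsKO replicate 1 none of the 10 genes was called in either region. Without Kmt5bsKO replicate 2 or 3 none was called in the gene body, where without Ctrl replicate 2 Wee1 alone was called. Of all 12451 genes, 0 were called in the gene body without Ctrl replicate 1 or without Kmt5bsKO replicate 1, 2 or 3. In the TSS region 1 of all genes was called without Ctrl replicate 1 and 16 without Kmt5bsKO replicate 1. Without Ctrl replicate 3, 4 of the 10 genes were called in the gene body (836 of all genes). Ctrl replicate 1 was the highest of the 6 libraries for 6 of the 10 TSS regions and for 4 of the gene bodies. Kmt5bsKO replicate 1 was the lowest for 6 TSS regions and for 4 gene bodies. The 10-gene median stayed between -0.77 and -0.58 for TSS regions and between -0.77 and -0.42 for gene bodies when any 1 library was left out.

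Promoter sequences are shown for 4 genes whose TSS region was lowest against Ctrl or whose gene body fell. The 4 genes were picked by these values, and Chek2 among them passed the test in neither region. A link between promoter words and signal was not tested. RefSeq windows of the 250 bases before the RefSeq start (GRCm38.p6) were held for 9 of the 10 genes, and Wee1 had no entry. RefSeq starts can differ from the starts listed for these genes. The windows of Topbp1, Atm and Clspn reach 112, 69 and 45 bases into the listed gene. Each stretch below leaves out bases that an exon of the GENCODE M21 annotation covers and holds at most 150 bases. It runs 5′ to 3′ on the strand of the gene, so that words on the other strand read as their reverse complement. The capitals mark matches, on either strand, to the E2F words TTTGGCGC, TTTCGCGC, TTTCCCGC and TTTGCCGC, to the CCAAT box and to the CHR word, which is TTTGAA. E2F proteins, NF-Y and the MuvB complexes are the factors usually linked with these words at cell cycle promoters. The stretches are chr4:126556785-126556934 (plus strand) for Clspn, chr17:35841348-35841497 (plus strand) for Mdc1, chr9:103305083-103305214 (plus strand) for Topbp1 and chr5:110839829-110839978 (plus strand) for Chek2.
Clspn: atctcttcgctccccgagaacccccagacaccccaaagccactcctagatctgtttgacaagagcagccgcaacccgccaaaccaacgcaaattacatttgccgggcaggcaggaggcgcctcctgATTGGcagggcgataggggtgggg
Mdc1: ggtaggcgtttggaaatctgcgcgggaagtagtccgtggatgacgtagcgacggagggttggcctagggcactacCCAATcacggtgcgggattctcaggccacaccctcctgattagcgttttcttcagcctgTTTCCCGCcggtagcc
Topbp1: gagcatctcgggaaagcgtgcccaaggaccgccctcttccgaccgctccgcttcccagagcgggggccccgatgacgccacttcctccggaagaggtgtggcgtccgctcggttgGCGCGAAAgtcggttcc
Chek2: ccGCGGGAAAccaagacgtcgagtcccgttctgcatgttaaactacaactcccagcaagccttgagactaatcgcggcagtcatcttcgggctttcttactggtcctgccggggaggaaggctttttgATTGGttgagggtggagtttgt

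An E2F word was found in 3 of the 9 windows, those of Mdc1 (16 bases before the RefSeq start), Topbp1 (129 bases before) and Chek2 (152 bases before), and in 1.86% of all 32851 windows of this length. CCAAT was found in 5 of the 9, with 1 match each in Atm, Atrip and Mdc1 and 2 each in Chek2 and Clspn, against 33.8% of all windows. The CHR word was in 0 of the 9 windows and in 15.99% of all. The window of Clspn, whose TSS signal had the most negative difference of the 10, thus held 2 CCAAT words and no E2F word, and those of Atr, Chek1 and Rad17 held no match. These counts are for the full windows, and the stretches shown hold 1 CCAAT match each for Clspn and Chek2. The Clspn match 21 bases before the RefSeq start is exonic, and the Chek2 match 186 bases before it lies beyond the stretch. Matches of letters are a description of these windows only, and the words searched do not overlap with each other in the windows shown.

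In the double-strand break branch all 3 Kmt5bsKO libraries lay below all Ctrl libraries for each of its 3 genes in both regions (background 5.33% and 9.34%), and Mdc1 passed the test in both while Atm and Chek2 passed it in neither. Mdc1, the H2AX adaptor, lies on the plus strand of chromosome 17 from 35841515 to 35859670 (ENSMUSG00000061607), and its TSS region covers 165 nt of exon with no coding base. Its TSS region held 87.9, 56.3 and 62.3 RPM in Ctrl MuSCs (replicates 1 to 3) against 26.9, 30.4 and 32.2 RPM in Kmt5bsKO MuSCs (replicates 1 to 3). Every Ctrl library was above every Kmt5bsKO library, and Ctrl replicate 1 was the highest. The log2 difference was -1.17 (SE 0.24, adjusted p = 0.041), a fold of 0.444, and it was the only call among the 10 genes in the TSS region that also held at an adjusted p under 0.05. In the gene body Mdc1 had 33.3, 34.4 and 22.0 TPM in Ctrl MuSCs against 13.7, 15.8 and 14.3 TPM in Kmt5bsKO MuSCs. These groups did not overlap either, and the difference was -0.99 (SE 0.19, adjusted p = 0.075). The Kmt5bsKO libraries lay close together in both regions, with a coefficient of variation of 9.07% for TSS and 7.55% for gene body signal, whereas those of Ctrl spread by 24.4% and 22.9%.

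Chek2, the effector kinase of ATM (ENSMUSG00000029521, plus strand of chromosome 5 from 110840000 to 110874145), had a lower TSS signal without passing the test. The TSS region held 19.6, 21.8 and 24.4 RPM in Ctrl MuSCs against 9.18, 8.58 and 12.4 RPM in Kmt5bsKO MuSCs, a log2 difference of -1.10 (SE 0.31, adjusted p = 0.11). The groups were apart, but between 13 and 28 reads lay behind each Kmt5bsKO value. It was called when the libraries were centred on their medians (adjusted p = 0.087), with edgeR on the recovered reads (adjusted p = 0.061) and with DESeq2 (adjusted p = 0.069). In 14 of the 17 alternatives run it was not called, with an adjusted p of up to 0.35 from limma. In the gene body the difference was smaller, -0.42 (SE 0.18, adjusted p = 0.32), from 8.98, 6.20 and 7.78 TPM in Ctrl to 6.05, 4.98 and 5.59 TPM in Kmt5bsKO MuSCs, with no overlap between the groups. Chek2 had the lowest gene body level of the 10 genes in Ctrl MuSCs, 7.65 ± 1.39 TPM (SD, n = 3).

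Atm, the apical kinase of the same branch (ENSMUSG00000034218, minus strand of chromosome 9 from 53439149 to 53536740), is the longest of these genes, with a gene body of 97191 nt. Its gene body held 7.10, 7.91 and 9.35 TPM in Ctrl MuSCs against 5.95, 6.66 and 4.31 TPM in Kmt5bsKO MuSCs. The 3 Kmt5bsKO libraries were the 3 lowest, and the log2 difference of -0.50 (SE 0.20, adjusted p = 0.29) did not pass the test. The TSS region had 20.6, 17.8 and 15.7 RPM against 12.8, 9.24 and 11.04 RPM, likewise without overlap (log2 difference -0.69, SE 0.32, adjusted p = 0.43). The start of the listed Atm transcript lies outside the GENCODE M21 model of the same transcript, which runs to 53533966, so that 0 nt of its TSS region is exonic there. Npat begins 307 nt away on the other strand.

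**Figure D2:**
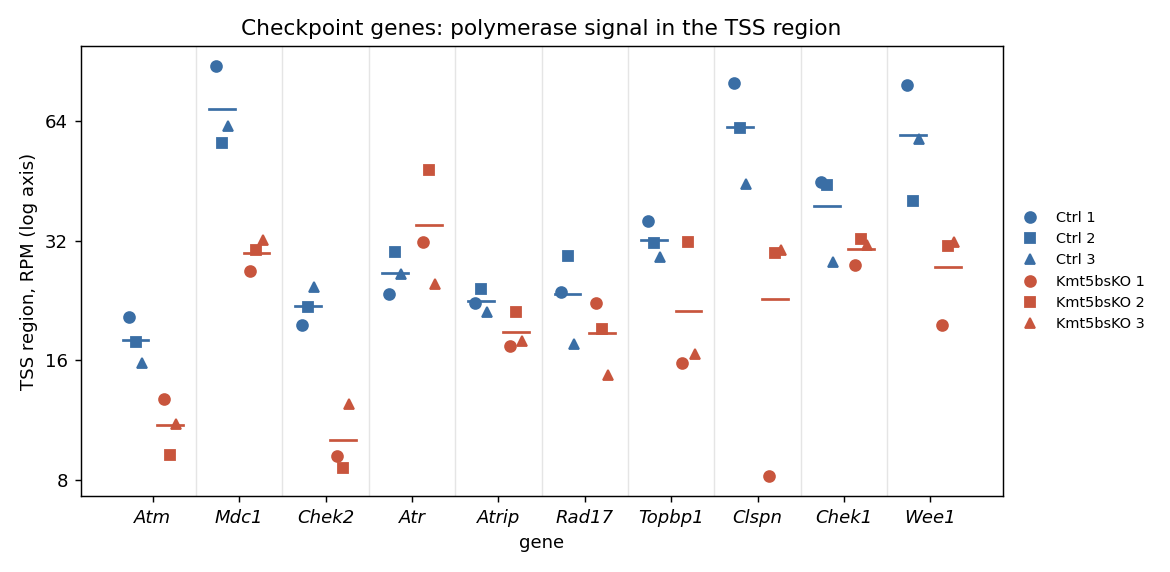
TSS region signal in RPM (log axis) of the 10 checkpoint genes (x axis), with 1 symbol per library and a bar for each group mean. Mdc1, Clspn and Wee1 have the 3 highest Ctrl means, and their Kmt5bsKO libraries (8.19 to 32.2 RPM) lie below every Ctrl library (40.2 to 87.9 RPM).

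Genes of the apical part of the fork branch passed no test. Atr (ENSMUSG00000032409, plus strand of chromosome 9 from 95857597 to 95951644) was the only one of the 10 genes whose TSS signal was higher on average in Kmt5bsKO MuSCs. The values were 23.5, 29.9 and 26.3 RPM in Ctrl MuSCs against 31.8, 48.2 and 24.8 RPM in Kmt5bsKO MuSCs. The groups overlapped, with Kmt5bsKO replicate 2 far above the rest and replicate 3 within the Ctrl range (log2 difference 0.34, 95% confidence interval -0.24 to 0.93, adjusted p = 0.75). Without Kmt5bsKO replicate 2 the difference was 0.087. In the gene body Atr had 7.14, 7.50 and 10.1 TPM in Ctrl MuSCs against 7.15, 7.48 and 5.24 TPM in Kmt5bsKO MuSCs, where replicates 1 and 2 of both groups were nearly equal (log2 difference -0.29, 95% confidence interval -0.77 to 0.18, adjusted p = 0.56). Without replicate 3 of either group the difference was -0.15. The antisense gene 1700065D16Rik covers all 400 nt of the Atr TSS region on the other strand, and only sense reads were counted.

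Atrip, the partner that binds ATR to RPA-coated DNA (ENSMUSG00000025646, minus strand of chromosome 9 from 109059747 to 109074124), had the highest gene body level of the 10 in Ctrl MuSCs, 32.9 ± 2.22 TPM (SD, n = 3). The libraries gave 35.2, 32.7 and 30.7 TPM in Ctrl MuSCs against 26.0, 29.2 and 24.1 TPM in Kmt5bsKO MuSCs. The groups were apart by a small margin (log2 difference -0.31, SE 0.13, adjusted p = 0.30). The TSS region gave 22.3, 24.1 and 21.2 RPM against 17.4, 21.1 and 17.9 RPM, a difference of -0.26 (SE 0.28, adjusted p = 0.82) without overlap. Tma7 ends 444 nt before Atrip on the same strand, and Trex1 begins 13 nt after it.

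Rad17, which loads the 9-1-1 clamp (ENSMUSG00000021635, minus strand of chromosome 13 from 100617164 to 100651051), had a gene body difference close to 0. It held 16.2, 16.8 and 18.1 TPM in Ctrl MuSCs against 19.4, 17.2 and 16.8 TPM in Kmt5bsKO MuSCs. These ranges overlap, and the log2 difference of 0.060 had a 95% confidence interval of -0.24 to 0.36 (adjusted p = 0.88). In the TSS region it had 23.7, 29.3 and 17.6 RPM in Ctrl MuSCs against 22.3, 19.2 and 14.7 RPM in Kmt5bsKO MuSCs, also with overlap (log2 difference -0.31, 95% confidence interval -0.94 to 0.31, adjusted p = 0.80). The first 73 nt of its TSS region lie opposite Ak6.

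Topbp1, an activator of ATR (ENSMUSG00000032555, plus strand of chromosome 9 from 103305215 to 103350428), fell in the gene body. It held 26.0, 24.4 and 23.0 TPM in Ctrl MuSCs against 12.0, 17.4 and 12.1 TPM in Kmt5bsKO MuSCs. All Kmt5bsKO libraries were below the tight Ctrl group, and the log2 difference was -0.82 (SE 0.17, adjusted p = 0.084), a fold of 0.566. In the TSS region Kmt5bsKO replicates 1 and 3, with 15.7 and 16.6 RPM, lay far below the Ctrl values of 35.8, 31.6 and 29.2 RPM, but replicate 2, with 31.7 RPM, lay within them. The TSS difference of -0.65 (SE 0.30, adjusted p = 0.42) did not pass the test.

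Clspn, the adaptor between ATR and CHK1 (ENSMUSG00000042489, plus strand of chromosome 4 from 126556935 to 126593903), had the most negative difference of the 10 genes in both regions. Its TSS region held 79.9, 61.5 and 44.5 RPM in Ctrl MuSCs against 8.19, 29.7 and 30.4 RPM in Kmt5bsKO MuSCs. The groups did not overlap, and Kmt5bsKO replicate 1, with 25 reads, was far below the other two. The log2 difference was -1.60 (SE 0.38, adjusted p = 0.062), a fold of 0.331, and without Kmt5bsKO replicate 1 it was -0.99 and no longer called (adjusted p = 0.24). In the gene body Clspn had 15.9, 17.9 and 10.7 TPM in Ctrl MuSCs against 5.02, 7.77 and 7.88 TPM in Kmt5bsKO MuSCs. That difference of -1.05 (SE 0.25, adjusted p = 0.11) missed the threshold narrowly and was called with edgeR (adjusted p = 0.041) and DESeq2 (adjusted p = 0.00045) on the recovered reads. In 13 of the 17 alternatives run it was not called.

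Chek1, the effector kinase of ATR (ENSMUSG00000032113, minus strand of chromosome 9 from 36708482 to 36726658), did not pass the test in either region. Its gene body held 11.9, 11.3 and 21.2 TPM in Ctrl MuSCs against 8, 11.4 and 6.43 TPM in Kmt5bsKO MuSCs. Ctrl replicate 3 stood far above the others, and Kmt5bsKO replicate 2 lay between the remaining Ctrl libraries (log2 difference -0.73, SE 0.29, adjusted p = 0.29). Without Ctrl replicate 3 this difference was -0.44 (adjusted p = 0.36). The TSS region had 45.0, 44.2 and 28.2 RPM in Ctrl MuSCs against 27.9, 32.4 and 31.3 RPM in Kmt5bsKO MuSCs, where Ctrl replicate 3 was the library that overlapped with the Kmt5bsKO group (log2 difference -0.33, SE 0.26, adjusted p = 0.73, and -0.54 without that library). In Ctrl replicate 3 the TSS signal of Chek1 was thus the lowest of its group while its gene body signal was the highest.

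Wee1, the kinase that phosphorylates CDK1 and keeps it inactive (ENSMUSG00000031016, plus strand of chromosome 7 from 110122046 to 110143286), fell in both regions. The gene body held 31.1, 27.3 and 29.5 TPM in Ctrl MuSCs against 15.2, 15.9 and 15.3 TPM in Kmt5bsKO MuSCs. Both groups were tight and well apart, with coefficients of variation of 6.45% and 2.46%. The log2 difference of -0.90 (SE 0.12, adjusted p = 0.061), a fold of 0.536, had the smallest SE of the 6 calls. In the TSS region Wee1 had 78.9, 40.2 and 57.8 RPM in Ctrl MuSCs against 19.7, 31.0 and 31.7 RPM in Kmt5bsKO MuSCs, again without overlap but with a wider spread (log2 difference -1.07, SE 0.28, adjusted p = 0.085). All 400 nt of its TSS region are exonic, 96 of them coding. The antisense gene 1600010M07Rik spans the whole of Wee1 on the other strand.

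**Figure D3:**
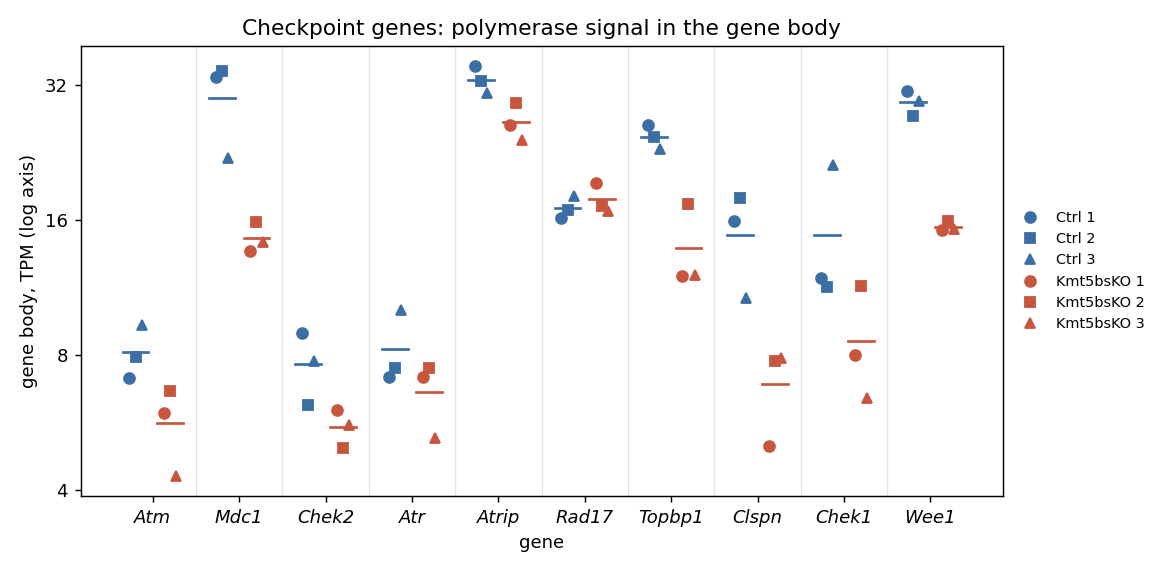
Gene body signal in TPM (log axis) of the 10 checkpoint genes (x axis), with 1 symbol per library and a bar for each group mean. For Wee1 the Ctrl libraries sit at 27.3 to 31.1 TPM and the Kmt5bsKO libraries at 15.2 to 15.9 TPM. For Rad17 the groups overlap, with Ctrl libraries at 16.2 to 18.1 TPM and Kmt5bsKO libraries at 16.8 to 19.4 TPM.

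In Ctrl MuSCs the TSS levels, which are comparable between genes because every TSS region has the same length, ran from 68.8 ± 16.8 RPM for Mdc1 over Clspn, Wee1, Chek1, Topbp1, Atr, Rad17, Atrip and Chek2 to 18.0 ± 2.44 RPM for Atm (SD, n = 3). The Ctrl libraries of each neighbouring pair in this order overlapped. Per length, the gene body order was Atrip, Mdc1, Wee1, Topbp1, Rad17, Clspn, Chek1, Atr, Atm and Chek2. Here Wee1 stood above Topbp1, Topbp1 above Rad17 and Chek1 above Atr without overlap of Ctrl libraries, and the other neighbours overlapped. The apical kinases Atm and Atr, with 8.12 ± 1.14 and 8.24 ± 1.604 TPM (SD, n = 3), thus had about as little gene body signal as Chek2, below the level of each of the other 7 genes.

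The pausing index, here the TSS value in RPM over the gene body value in TPM, sets polymerases near the start against those further in. Since the units differ, only its ratios between genes or groups can be read. Each region is scaled to its own total per library, so a shift of the index shared by all genes is scaled out. A difference between groups is therefore relative to other genes. None of the 10 genes passed the test, as was so for all 11698 genes with an index (background 0%). Before adjustment, 2 genes had a p under 0.05 (background 3.86%), and they lay in opposite directions. For Atr the index was 3.29, 3.98 and 2.61 in Ctrl MuSCs against 4.45, 6.45 and 4.74 in Kmt5bsKO MuSCs, so that all Kmt5bsKO libraries were above all Ctrl libraries (background for this order 5.93%). The log2 difference of Atr was 0.66 (95% confidence interval 0.074 to 1.25), with an adjusted p of 0.9997 from limma. For Chek2 the index was 2.184, 3.52 and 3.14 in Ctrl MuSCs against 1.52, 1.72 and 2.22 in Kmt5bsKO MuSCs, where Kmt5bsKO replicate 3 reached just above Ctrl replicate 1 (log2 difference -0.69, 95% confidence interval -1.30 to -0.069).

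For the 4 genes called in either region, the index differed by -0.53 (Clspn), -0.17 (Mdc1), -0.16 (Wee1) and 0.18 (Topbp1) on the log2 scale, each with overlapping groups and a confidence interval that holds 0. The Clspn value was -0.11 without Kmt5bsKO replicate 1, and that of Topbp1 was 0.030 without Kmt5bsKO replicate 2. In Ctrl MuSCs the index was highest for Clspn, 4.20 ± 0.796, and lowest for Atrip, 0.687 ± 0.0526 (SD, n = 3), the only gene of the 10 whose Ctrl libraries were all apart from those of its neighbour in the order. Chek1 varied most, from 1.33 in Ctrl replicate 3 to 3.91 in Ctrl replicate 2.

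**Figure D4:**
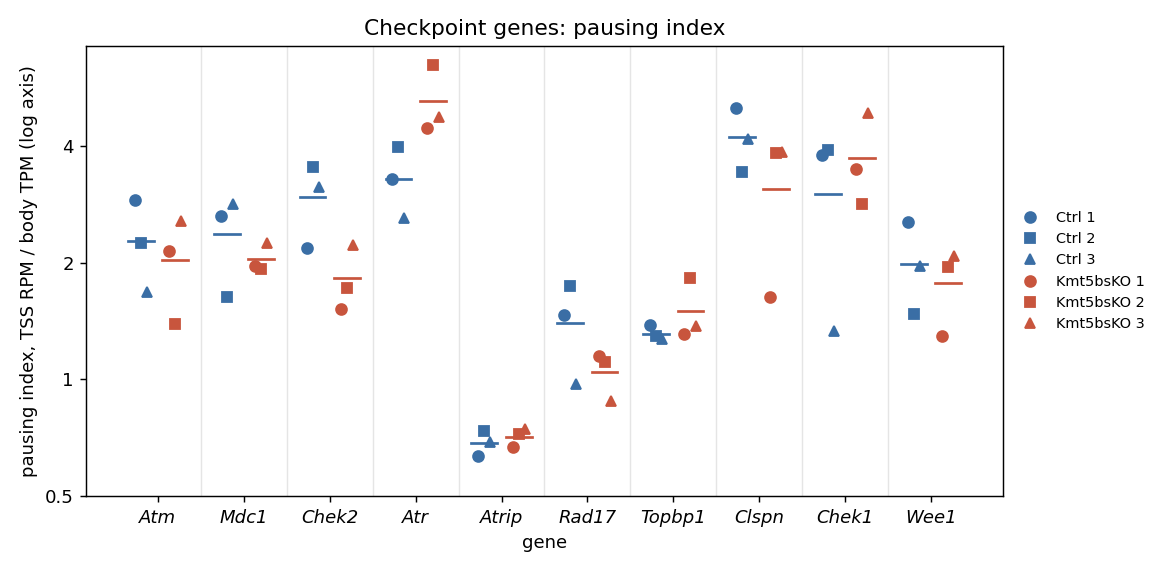
Pausing index, TSS RPM over gene body TPM (log axis), of the 10 checkpoint genes (x axis), with 1 symbol per library and a bar for each group mean. Atr is the only gene whose 3 Kmt5bsKO libraries (4.45 to 6.45) all lie above its 3 Ctrl libraries (2.61 to 3.98).

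Other genes of the pathway were compared in 5 lists. Among the 12451 genes tested, calls of lower signal made up 0.731% for TSS and 1.38% for gene body values. Negative differences made up 41.8% and 46.2%. These shares are the background for the lists here and below, and no list was tested against them. Of 7 genes that activate ATR or protect forks, 1 fell in the TSS region, Rpa2, a subunit of the RPA complex that coats single-stranded DNA, and 1 in the gene body, Wdhd1, a replisome scaffold. None rose, and all 7 differences were negative in both regions, with medians of -0.61 and -0.62. The TSS region of Rpa2 held 59.6, 47.7 and 45.1 RPM in Ctrl MuSCs against 25.2, 25.1 and 25.8 RPM in Kmt5bsKO MuSCs (log2 difference -0.98, adjusted p = 0.070). Wdhd1 had 14.3, 13.6 and 10.98 TPM in the gene body of Ctrl and 5.24, 8.47 and 5.55 TPM in that of Kmt5bsKO MuSCs (log2 difference -0.98, adjusted p = 0.090).

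Among 8 genes of mitotic entry and its control, Pkmyt1, the relative of Wee1 at the membrane, fell in the TSS region (log2 difference -1.26, adjusted p = 0.040), and Cdk1, the target of both, and Cdc25c, the phosphatase that activates CDK1, fell in the gene body (-0.99, adjusted p = 0.084, and -0.93, adjusted p = 0.080). All 8 had negative differences in both regions, with medians of -0.54 and -0.35. The gene body of Cdk1 held 87.6, 78.8 and 52.0 TPM in Ctrl MuSCs against 33.1, 33.9 and 40.1 TPM in Kmt5bsKO MuSCs. Both the kinase gene Wee1 and its substrate gene Cdk1 were thus called lower in the gene body.

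Of 8 genes of break sensing and chromatin, 1 fell in TSS signal and 0 fell in gene body signal, where medians were -0.20 and -0.29. The gene that fell was H2afx, which encodes the histone H2AX that MDC1 binds. Its TSS region held 2399, 1527 and 1405 RPM in Ctrl MuSCs against 610, 762 and 790 RPM in Kmt5bsKO MuSCs (log2 difference -1.27, adjusted p = 0.050), and its gene body difference was -1.42 (adjusted p = 0.11). Trp53bp1, encoding the repair factor 53BP1, had the largest positive gene body difference of this list, 0.16 (adjusted p = 0.62). It held 17.3 to 19.9 TPM in Kmt5bsKO and 15.98 to 17.01 TPM in Ctrl libraries.

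The 10 genes of the 9-1-1 clamp and its loaders had 0 calls in both regions, with medians of -0.26 and -0.51. Their gene body differences ran from -0.75 for Hus1b, which had at most 7 reads per library, to 0.25 for Rad1 (adjusted p = 0.80 and 0.60). The 6 relatives of ATM and ATR and their assembly factors also had 0 calls, with medians of 0.026 and -0.059. Gene body differences there ran from -0.23 for Tti1 to 0.22 for Mtor, the growth kinase (adjusted p = 0.55 and 0.57).

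**Figure D5:**
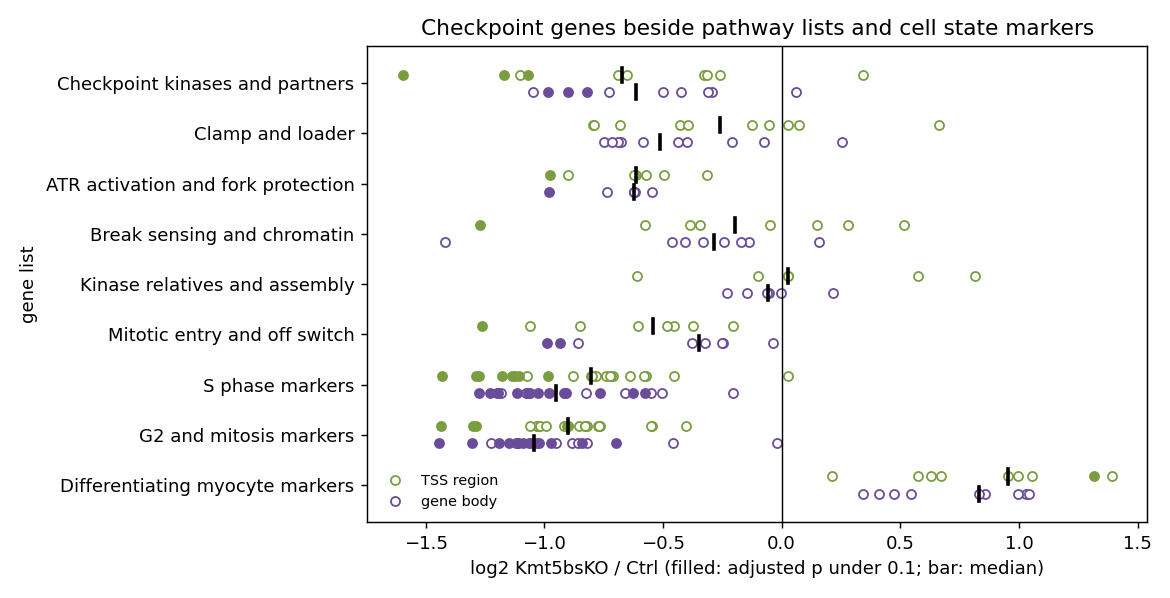
Log2 difference between Kmt5bsKO and Ctrl MuSCs (x axis) of each tested gene in 9 gene lists (y axis), with the TSS region in green and the gene body in purple. Filled points have an adjusted p under 0.1 and black bars are medians; the checkpoint genes have medians of -0.67 and -0.61, the S phase markers -0.80 and -0.95, and the differentiating myocyte markers 0.95 and 0.83.

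Cell cycle markers also fell in part, while markers of differentiating myocytes had higher values that mostly did not pass the test. None of the lists shared a gene with the 10 checkpoint genes. Of 22 S phase markers, 7 fell in TSS and 13 in gene body signal, where their summed level was 850 to 993 TPM in Ctrl MuSCs against 495 to 580 TPM in Kmt5bsKO libraries. Of 22 markers of G2 and mitosis, 5 fell in TSS signal (Top2a, Ccna2, Kif11, Hmmr and Anln, named after their values were seen) and 15 in gene body signal, with sums of 616 to 946 TPM and 417 to 439 TPM. All 9 markers of differentiating myocytes had positive differences in both regions, 1 of them (Mef2c, a muscle transcription factor) called for TSS signal and 0 for the gene body, and their gene body sum was 1488 to 3141 TPM in Ctrl MuSCs against 3270 to 4359 TPM in Kmt5bsKO libraries. The 10 checkpoint genes summed to 182 to 193 TPM in Ctrl MuSCs against 112 to 134 TPM in Kmt5bsKO libraries. The part of cycling and of differentiating cells in the lower checkpoint signal was not tested. In bulk libraries fewer cells that transcribe a gene and less transcription per cell cannot be told apart. Values are scaled to a fixed total per library, so neither can be told from a lower share of a larger total.

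Markers of other cell types are given for the gene body. Endothelial genes (3 analysed of 5) summed to 2.50 to 4.23 TPM in Ctrl MuSCs against 4.38 to 5.05 TPM in Kmt5bsKO libraries, and fibroblast genes (3 of 5) to 38.7 to 67.0 TPM and 45.6 to 51.9 TPM. Schwann cell genes (4 of 4) summed to 8.75 to 11.7 TPM and 15.8 to 25.8 TPM, with S100b at 0 in Ctrl replicate 1 and with Sox10, a glial transcription factor, called higher (log2 difference 1.56, adjusted p = 0.075). Of the blood markers, Cd68 and Itgam were analysed, and Cd68 alone gave 214 to 402 TPM in Ctrl MuSCs against 319 to 326 TPM in Kmt5bsKO libraries. The 7 satellite cell genes analysed had 0 calls in both regions.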

How the data were processed

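PRO-seq libraries of 3 Ctrl and 3 Kmt5bsKO MuSC samples were analysed, grouped by the genotype in their labels. The submitters' processing notes name FastQC 0.11.8, Trimmomatic 0.39, STAR 2.6.1d, Picard 2.18.16 and GRCm38. The authors removed duplicates and counted sense reads of 1 listed isoform per gene. Gene body values were deposited as TPM. TSS values are also named TPM by the authors but behave as RPM, since all TSS regions have 400 nt, and are called RPM here. The same log-scale test was used. Each is scaled to its own fixed total per library, so a change of total transcription, or of the TSS share of all reads, cannot appear. Whole reads were recovered from the smallest steps of the values (at least 99.1% of TSS values, and at least 99.1% of gene body values of genes with bodies under 2000 nt, came out whole within 0.1 reads).

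Genes outside chromosomes X and Y averaging 0.5 or more in each of both regions were tested as log2(value + 0.5), which understates changes of low genes, with limma 3.58.1 (trend) in R 4.3.3 and genotype as the only term, at a Benjamini-Hochberg adjusted p under 0.1. SE and 95% confidence intervals are limma's. The pausing index was tested as a log2 ratio without a pseudocount, for genes above 0 in all libraries. The study's Reporting Summary calls the replicates biological, and p-values measure the spread between these libraries.

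Alternatives were pseudocounts of 0.1 and 1, other filters, chromosomes X and Y, centring, a replicate block, no trend, a threshold of 0.05, edgeR 4.0.16 and DESeq2 1.42.0 on recovered reads, each library left out and, added after seeing the data, an unscaled pausing index. The 10 genes and all gene lists were chosen with earlier results of these data known. Beyond the 10 genes, each pathway list's called genes and its largest gene body rise and fall were named. No column was left unused. The fits were tested on simulated data. Gene coordinates are as the authors list them. Exons and neighbours come from GENCODE M21 and promoters from RefSeq (both GRCm38). Python 3.11.15, pandas 2.3.3 and matplotlib 3.10.9 were also used.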

Additional observations from a re-analysis of the deposited data

How the results depend on the processing

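Of the 10 checkpoint genes, 3 were called in the TSS region. The number was 0 without a filter on low values, 0 with the replicate block, 0 without a trend, and 1 (Mdc1) at an adjusted p under 0.05. Centring, edgeR and DESeq2 gave 4, adding Chek2. Leaving out 1 library gave 0 to 3. In the gene body 3 were called. The number was 0 with the replicate block and 0 at an adjusted p under 0.05, and centring, edgeR and DESeq2 gave 4, adding Clspn. Leaving out 1 library gave 0 to 4. For the pausing index the number was 0 under every alternative run. With the replicate block 0 of all 12451 genes were called in either region (1141 and 1441 at an unadjusted p under 0.05). The replicate numbers are not known to pair the samples: deviations of same-numbered libraries correlated between -0.16 and -0.034 in the TSS region and between -0.33 and -0.15 in the gene body.

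Without a filter and without a trend, limma called 0 of all genes in the TSS region (1448 and 1292 at an unadjusted p under 0.05). For all genes in the gene body, 372 were called by limma, 748 by edgeR, 1295 by DESeq2 and 1 at an adjusted p under 0.05. Leaving out 1 library gave 0 to 836. In the TSS region 207 were called by limma, 279 by edgeR, 295 by DESeq2 and 64 at an adjusted p under 0.05, and leaving out 1 library gave 1 to 408. The cause of these differences was not tested.

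No TSS difference of the 10 genes changed sign under any alternative run. With 1 library left out, signs did change in the pausing index of Atm (-0.38 to 0.078), Wee1 (-0.36 to 0.052), Atrip (-0.0043 to 0.11) and Chek1 (-0.083 to 0.69), and in the gene body of Rad17 (-0.0012 to 0.10). Read depth was low in the TSS regions of Chek2 and Atm, with 13 to 28 and 14 to 39 reads per Kmt5bsKO library.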
